A study of Mus musculus with 12 samples.

Results

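The mitochondrial ribosomal proteins were taken as every gene of the count table whose symbol begins with Mrpl or Mrps followed by a digit. This gave 77 of the 20295 genes in the table, and all 77 had enough reads to be tested. Of these, 50 encode proteins of the large subunit and 26 encode proteins of the small subunit. Mrps36 carries the name but is now known as a component of the 2-oxoglutarate dehydrogenase complex, and it was kept as the remaining member. The genes lie on 17 chromosomes.

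Mitochondria translate the few respiratory chain subunits encoded by their own genome on a dedicated ribosome, the mitoribosome. Its RNA comes from mitochondrial DNA, whereas its proteins are encoded in the nucleus, made in the cytosol and imported. Some of these proteins have bacterial counterparts and others were gained in mitochondria, and in fat cells the pathway is best known from brown adipocytes, where β-adrenergic signaling through the coactivator PGC-1α is linked to the formation of mitochondria.

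The data are RNA sequencing counts from mature epididymal white adipocytes (eWAs) of lean male C57/BL6J mice. The age of the mice is not given in the sources used here. The fat was digested with collagenase, the adipocytes were floated off, and a 3D hydrogel culture of 50000 cells in each well was kept for 2 days. The 4 groups of 3 libraries received DMSO (vehicle), isoproterenol (ISO, a β-adrenergic agonist) for 3 h, lipase inhibitors (Lip), or lipase inhibitors and then ISO for 3 h (Lip+ISO). The inhibitors named in the study's methods are Atglistatin, which blocks ATGL, and CAY10499, which blocks HSL, the enzymes that take the first steps of triglyceride breakdown. The legend for these cells in the study names another activator of lipolysis, SR-3420, but the sample labels name ISO, and the labels were followed. The study gives the replicates as independent experiments. All cells were wild type, and a floated culture is not a purified one.

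Libraries held 22632220 to 43707557 counts. The summed level of 10 adipocyte markers was 23016 to 36010 CPM (counts scaled to the library's total and TMM factor) over the 12 libraries. Markers of other cells were present at lower levels, and the vehicle and ISO libraries did not overlap in their sums except for endothelial markers. For the 8 macrophage markers, of which Cd163 had no count in some libraries, the summed level was 45.7 to 59.5 CPM in vehicle and 89.8 to 134 CPM in ISO. It was 339 to 604 and 662 to 902 CPM for 8 fibroblast or preadipocyte markers, and 102 to 195 and 182 to 354 CPM for 7 endothelial markers. It was 21.0 to 46.8 and 55.4 to 65.9 CPM for 5 mesothelial markers, of which Msln had no count in some libraries. With the inhibitors, the ranges of Lip and Lip+ISO did not overlap for macrophage markers (47.4 to 54.8 and 55.7 to 101 CPM), but overlapped for fibroblast (450 to 478 and 399 to 578 CPM), endothelial (55.2 to 176 and 74.7 to 222 CPM) and mesothelial markers (12.8 to 54.7 and 37.3 to 46.2 CPM). These sums move with ISO beside all results on ISO below, and their part in them was not tested. In RNA from a whole culture, fewer cells of a type and less RNA per cell cannot be told apart.

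Of the promoters, 4 are shown because their genes were among the few that changed with ISO. Mrps33 was the gene called higher, Mrpl22 and Mrpl44 fell the most, and Mrpl49, chosen after its values were seen, fell with and without lipase inhibitors. Each sequence runs 5′ to 3′ on the strand of its gene, from 250 bases before to 30 bases after the RefSeq start, in the build GRCm38.p6. The windows are chr6:39810907-39811186 on the minus strand, chr11:58171414-58171693 on the plus strand, chr1:79775768-79776047 on the plus strand and chr19:6057726-6058005 on the minus strand. Capitals mark matches to the 6 motifs described with the promoters of the whole family. In Mrpl22 they are an ETS motif (CCGGAAG) followed by an NRF1 motif (GCGCATGC), and in Mrpl49 a cAMP response element (TGACGTCA).
Mrps33: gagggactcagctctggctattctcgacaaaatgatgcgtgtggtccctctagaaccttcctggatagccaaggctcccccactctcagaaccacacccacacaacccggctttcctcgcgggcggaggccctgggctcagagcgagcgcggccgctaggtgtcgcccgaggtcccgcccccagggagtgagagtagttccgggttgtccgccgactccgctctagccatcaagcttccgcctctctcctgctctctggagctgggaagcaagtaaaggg
Mrpl22: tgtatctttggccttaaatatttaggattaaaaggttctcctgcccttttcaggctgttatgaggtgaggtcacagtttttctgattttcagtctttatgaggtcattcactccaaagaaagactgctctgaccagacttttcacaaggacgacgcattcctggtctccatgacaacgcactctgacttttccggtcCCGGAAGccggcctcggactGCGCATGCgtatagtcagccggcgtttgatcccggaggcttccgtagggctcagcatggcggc
Mrpl44: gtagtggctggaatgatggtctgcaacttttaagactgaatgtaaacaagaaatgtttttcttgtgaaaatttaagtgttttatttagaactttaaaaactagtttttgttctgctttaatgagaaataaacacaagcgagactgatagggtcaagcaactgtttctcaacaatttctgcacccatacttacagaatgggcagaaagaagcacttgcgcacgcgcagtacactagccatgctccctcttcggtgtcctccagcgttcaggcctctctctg
Mrpl49: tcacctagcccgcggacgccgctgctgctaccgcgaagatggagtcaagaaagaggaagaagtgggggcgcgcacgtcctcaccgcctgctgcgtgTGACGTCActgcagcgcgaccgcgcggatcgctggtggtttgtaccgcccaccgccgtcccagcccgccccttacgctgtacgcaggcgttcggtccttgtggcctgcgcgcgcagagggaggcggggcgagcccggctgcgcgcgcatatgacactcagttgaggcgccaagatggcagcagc

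With TMM scaling the family as a whole was expressed at nearly the same level in all groups. The summed level of the 77 genes was 3645, 3372 and 3520 CPM in the vehicle libraries and 3542, 3340 and 3322 CPM in the ISO libraries. It was 3477, 3394 and 3547 CPM in Lip and 3331, 3494 and 3559 CPM in Lip+ISO. The ranges of the 4 groups overlap, and the highest library was 1.097-fold above the lowest.

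As means, the sums were 3513 ± 137 CPM for vehicle, 3402 ± 122 CPM for ISO, 3473 ± 76.8 CPM for Lip and 3462 ± 117 CPM for Lip+ISO (SD, n = 3 each). By library totals, these reads made up 0.322 to 0.367% of a library. The sum of the large subunit was 2294 ± 93.3 CPM in vehicle and 2226 ± 74.6 CPM in ISO. The sum of the small subunit was 1215 ± 44.2 CPM in vehicle and 1172 ± 49.4 CPM in ISO. For both subunits the difference between these means was smaller than the SD between replicates. Between same-numbered libraries, ISO was lower than vehicle in 3 of 3 pairs for both subunits and for the whole family, by a mean difference of -111 ± 83.3 CPM for the family (SD, n = 3 pairs). Lip+ISO was lower than Lip in 1 of 3 pairs, with a mean difference of -11.2 ± 124 CPM. The order depends on the scaling. With library totals alone the sums were 3564 ± 46.1 CPM in vehicle and 3354 ± 30.1 CPM in ISO, and 3607 ± 78.1 CPM in Lip and 3328 ± 129 CPM in Lip+ISO, and neither pair of groups overlapped. With DESeq2-type size factors (RLE) ISO was lower than vehicle in 2 of 3 pairs.

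**Figure D1:**
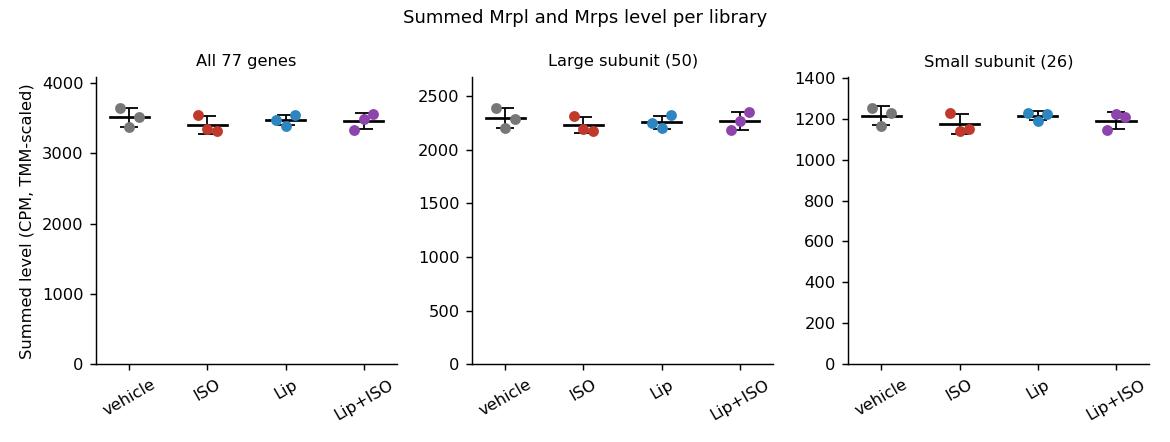
Summed level in CPM of all 77 genes, of the 50 large-subunit genes and of the 26 small-subunit genes. Points are libraries, the bar is the mean and the whisker the SD of 3 libraries, with the axis from 0. The sums of the 77 genes lie between 3322 and 3645 CPM, and the 4 groups overlap in each panel.

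Levels of single genes differed far more between members than between treatments. Per kb of counted length, Mrps6, a small-subunit protein with a bacterial counterpart, was the highest in vehicle at 473 ± 21.3 CPM per kb. It shares its span with Slc5a3 on the same strand, so its reads are uncertain. Mrpl20 followed at 136 ± 6.58, Mrps21 at 123 ± 3.20, Mrpl33 at 119 ± 4.28 and Mrpl12 at 117 ± 6.94 CPM per kb (SD, n = 3). Between neighbors among these last 4 genes the difference from Mrps21 to Mrpl33 and from Mrpl33 to Mrpl12 was within their summed SD, whereas that from Mrpl20 to Mrps21 was larger.

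At the other end were Mrps36 with 5.33 ± 0.112, Mrps33 with 3.62 ± 0.106 and Mrpl23 with 0.971 ± 0.222 CPM per kb in vehicle. Mrpl23 had as few as 9 reads in a library. For Mrpl23 and Mrps36, as for Mrpl27 and Mrpl48, RefSeq lists pseudogenes, so reads shared with these copies may have been lost or moved in the counting. Without Mrps6, the summed level was 3213 ± 123 CPM in vehicle and 3115 ± 87.6 CPM in ISO. The members are short genes, with a median counted length of 1051 bp against 2340 bp for all genes.

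**Figure D2:**
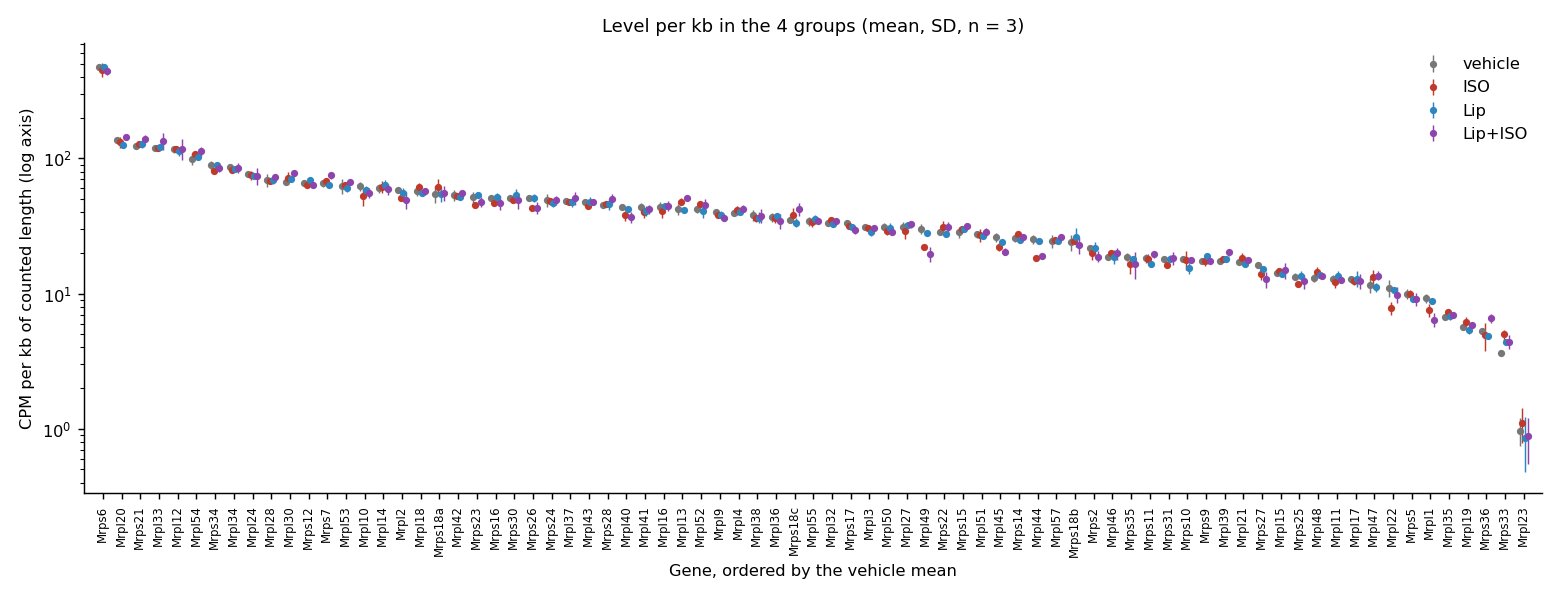
Level of each gene in CPM per kb of counted length on a log axis, ordered by the vehicle mean. Points are group means and whiskers the SD of 3 libraries, so the 4 groups of a gene can be compared side by side. From Mrps6 at 473 to Mrpl23 at 0.971 CPM per kb in vehicle, the groups of most genes lie on top of each other.

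The response to ISO was asked first without inhibitors. Of the 77 genes, 1 was called higher (Mrps33) and 3 lower (Mrpl22, Mrpl44 and Mrpl49) in ISO than in vehicle, at an adjusted p at or under 0.05 in edgeR's quasi-likelihood test with Benjamini-Hochberg adjustment over all genes tested. Among all 13543 genes tested, 12.3% were called higher and 13.9% lower. When libraries were scaled by their totals alone, no member was called higher and 9 were called lower. That scaling moved the median of all genes to -0.0388 on the log2 scale. The median of the members relative to it was -0.03, as with the main scaling. The share of all genes called with library totals is not given here, so these counts are not read as a result on the members. A fit that blocked on the replicate number called 3 members higher and 6 lower, against 18.8% and 19.6% of all genes. The additional calls were Mrpl13 and Mrps18a higher and Mrpl1, Mrpl45 and Mrps26 lower.

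Over the members, the median log2 fold change was -0.03, and 33 values were positive and 44 negative. The median size of a change was 0.09 on the log2 scale, against 0.29 for all genes, with median SEs of 0.09 and 0.15. For 72 of the 77 members (93.5%) the 95% confidence interval lay within a 1.5-fold change in either direction, which held for 43.4% of all genes tested. The other 5 were the 4 called genes and Mrpl23, which had few reads. Without an adjustment, 11 members (14.3%) had a p under 0.05 in edgeR, 2 of them higher and 9 lower, against 38.9% of all genes. No member changed by 1 or more on the log2 scale, whereas 7.48% of all genes were called with a change of that size.

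Mrps33, a mitochondria-specific protein of the small subunit, lies at 39751807 to 39760935 on the minus strand of chromosome 6 (mm9, as are all gene positions here). It had 3.92, 3.69 and 3.80 CPM in vehicle and 5.37, 5.61 and 4.76 CPM in ISO. All ISO libraries were above all vehicle libraries. The log2 fold change was 0.47 ± 0.16 (SE), with a 95% confidence interval from 0.12 to 0.81 and an adjusted p of 0.0486 in edgeR. This call was kept in 1 of 15 fits that left out a library or a replicate number, the fit without Lip+ISO replicate 1. In the other fits the adjusted p reached 0.295. With the inhibitors the gene had 4.67, 4.67 and 4.59 CPM in Lip and 4.24, 5.26 and 4.37 CPM in Lip+ISO, which overlap, and its log2 fold change was -0.01 ± 0.16.

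Mrpl22 encodes the protein that lines the peptide exit tunnel of the large subunit (chromosome 11, 57985156 to 57993082, plus strand). It had 9.47, 7.26 and 7.83 CPM in vehicle and 6.61, 5.43 and 5.49 CPM in ISO. The groups did not overlap. ISO lowered it by a log2 fold change of -0.49 ± 0.16 with an adjusted p of 0.0367 in edgeR. The call was lost in 7 of 15 fits, those without vehicle replicate 1 or 3, without ISO replicate 2 or 3, or without all libraries of a replicate number, with an adjusted p of up to 0.165. In Lip it had 7.76, 7.82 and 8.05 CPM and in Lip+ISO 7.52, 8.15 and 6.28 CPM. These values overlap, and the log2 fold change was -0.11 ± 0.16.

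Mrpl44, a large-subunit protein related to RNase III enzymes, had the decrease that passed in the most fits (chromosome 1, 79772593 to 79778020, plus strand). It had 36.0, 38.8 and 33.2 CPM in vehicle and 26.1, 26.5 and 25.7 CPM in ISO. Every ISO library was below every vehicle library. This gave a log2 fold change of -0.46 ± 0.08, with an interval from -0.64 to -0.28 and an adjusted p of 0.0014 in edgeR, and it stayed called in all 15 fits that left libraries out.

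Mrpl49 encodes a mitochondria-specific protein of the large subunit (chromosome 19, 6053630 to 6057751, minus strand). It had 53.7, 45.7 and 47.7 CPM in vehicle and 37.8, 34.1 and 36.4 CPM in ISO. Again the groups did not overlap. The log2 fold change was -0.44 ± 0.10 with an adjusted p of 0.0056 in edgeR, and 14 of 15 fits kept the call. It was lost without replicate 2 of all groups (adjusted p = 0.0643). Its span overlaps Syvn1 on the other strand, and since nothing states that reads were counted by strand, reads of both genes cannot be told apart there.

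The same question was asked in cells whose lipases were blocked. In Lip+ISO against Lip, 2 members were called higher (Mrpl13 and Mrps7) and 3 lower (Mrpl1, Mrpl44 and Mrpl49) in edgeR. Among all genes tested, 11.5% were called higher and 15.8% lower. Scaling by size factors (RLE) gave 4 higher and 3 lower members, and library totals alone gave no member higher and 12 lower. That last scaling moved the median of all genes to -0.115 on the log2 scale, and the median of the members relative to it was 0.04, as with the main scaling. For RLE and library totals the share of all genes called is not given here.

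With the replicate block, 5 members were called higher and 5 lower, against 15.5% and 20.1% of all genes. The additional calls were Mrpl20, Mrps11 and Mrps18c higher and Mrpl45 and Mrps26 lower. Over the members, the median log2 fold change was 0.03, with 43 positive and 34 negative values. The confidence interval lay within a 1.5-fold change for 72 members (93.5%), against 42.0% of all genes. The other 5 were Mrpl1, Mrpl23, Mrpl49, Mrps18c and Mrps36. No member reached a change of 1 on the log2 scale, whereas 7.35% of all genes were called with such a change.

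The decrease of Mrpl44 and Mrpl49 was seen again in these libraries, which are other libraries than those of ISO and vehicle. It is not an independent repeat. Deviations of same-numbered vehicle and Lip libraries from their group means correlated at 0.197 to 0.369, and both comparisons come from the same fit. Mrpl44 had 36.0, 33.8 and 35.7 CPM in Lip and 26.04, 28.8 and 26.3 CPM in Lip+ISO. Its log2 fold change was -0.38 ± 0.08 with an adjusted p of 0.0040 in edgeR, and 14 of 15 fits kept the call, all but that without replicate 1 of all groups (0.0876). The groups did not overlap.

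Mrpl49 had 46.2, 46.3 and 46.1 CPM in Lip and 27.3, 33.1 and 35.1 CPM in Lip+ISO, so the groups did not overlap. Its log2 fold change was -0.54 ± 0.10 with an adjusted p of 0.0012 in edgeR, and all 15 fits kept it.

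Mrpl1, part of the mobile stalk near the exit site for transfer RNA (chromosome 5, 96639134 to 96695746, plus strand), had 31.5, 30.3 and 29.1 CPM in Lip and 24.5, 22.4 and 19.4 CPM in Lip+ISO. The groups did not overlap, and a log2 fold change of -0.46 ± 0.11 had an adjusted p of 0.0078 in edgeR. It was kept in 13 of 15 fits and lost without replicate 2 or replicate 3 of all groups (adjusted p up to 0.0799). Without inhibitors it had 32.8, 29.0 and 33.6 CPM in vehicle and 29.5, 24.2 and 24.5 CPM in ISO. There the groups overlapped and the log2 fold change was -0.29 ± 0.11 (adjusted p = 0.0697 in edgeR, and 0.0214 with the replicate block).

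Mrpl13, a large-subunit protein with a bacterial counterpart (chromosome 15, 55365650 to 55388867, minus strand), had 33.5, 32.6 and 32.0 CPM in Lip and 42.2, 39.2 and 38.2 CPM in Lip+ISO. The Lip+ISO libraries were all higher. The log2 fold change was 0.29 ± 0.09 with an adjusted p of 0.0237 in edgeR, and 9 of 15 fits kept the call. It was lost without Lip+ISO replicate 1, Lip replicate 2 or 3, or any replicate number, with an adjusted p of up to 0.177. In ISO against vehicle it was 0.19 ± 0.09 (adjusted p = 0.121, and 0.0391 with the replicate block).

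Mrps7, a protein of the small-subunit head (chromosome 11, 115465465 to 115468938, plus strand), had 83.6, 85.2 and 84.5 CPM in Lip and 96.4, 95.1 and 106 CPM in Lip+ISO. All Lip+ISO libraries were higher. The log2 fold change was 0.23 ± 0.07 with an adjusted p of 0.0331 in edgeR, and 7 of 15 fits kept the call. It was lost without Lip+ISO replicate 3, any Lip library, vehicle replicate 3 or any replicate number, with an adjusted p of up to 0.220. In vehicle it had 90.1, 81.2 and 89.2 CPM and in ISO 95.2, 84.6 and 91.0 CPM, which overlap.

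**Figure D3:**
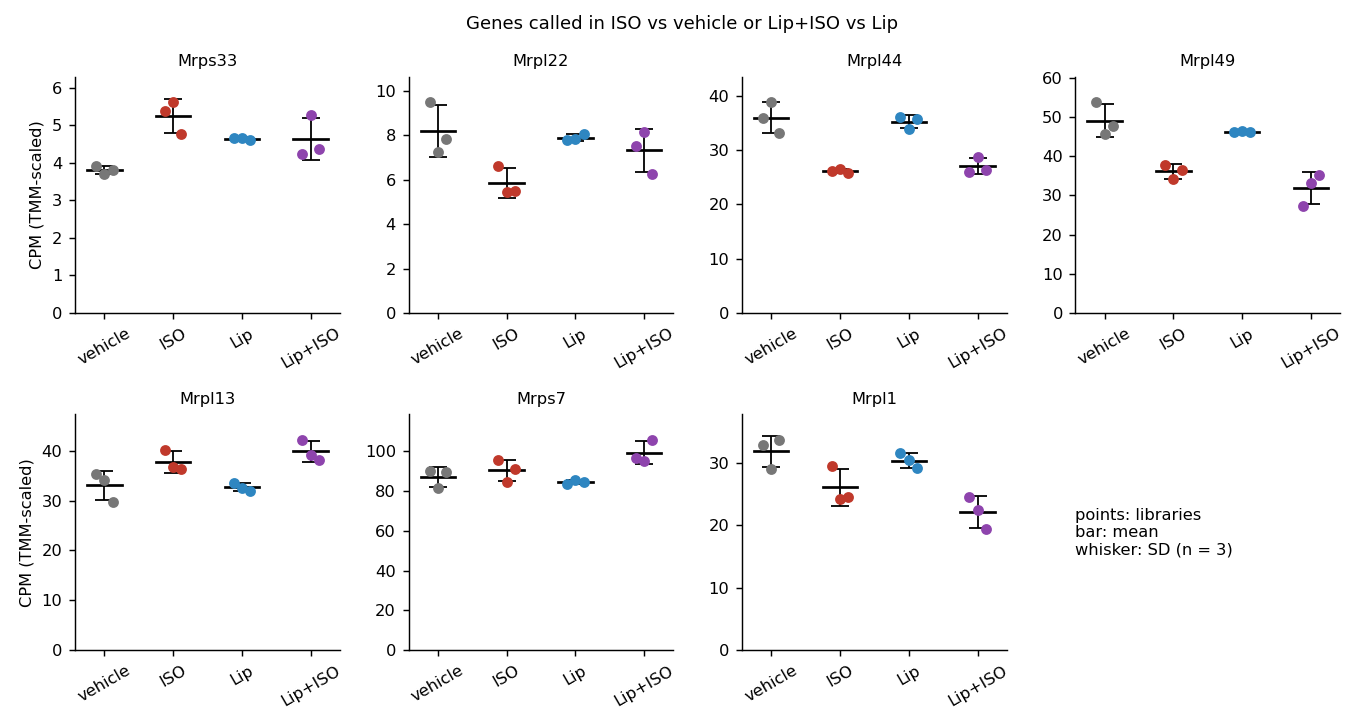
CPM of the 7 genes called in ISO against vehicle or in Lip+ISO against Lip. Points are libraries, the bar is the mean and the whisker the SD of 3 libraries, with each axis from 0. Mrpl44 and Mrpl49 are lower with ISO both without and with lipase inhibitors, whereas for Mrps33 (3.69 to 3.92 CPM in vehicle) ISO lies above vehicle while Lip and Lip+ISO overlap.

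**Figure D4:**
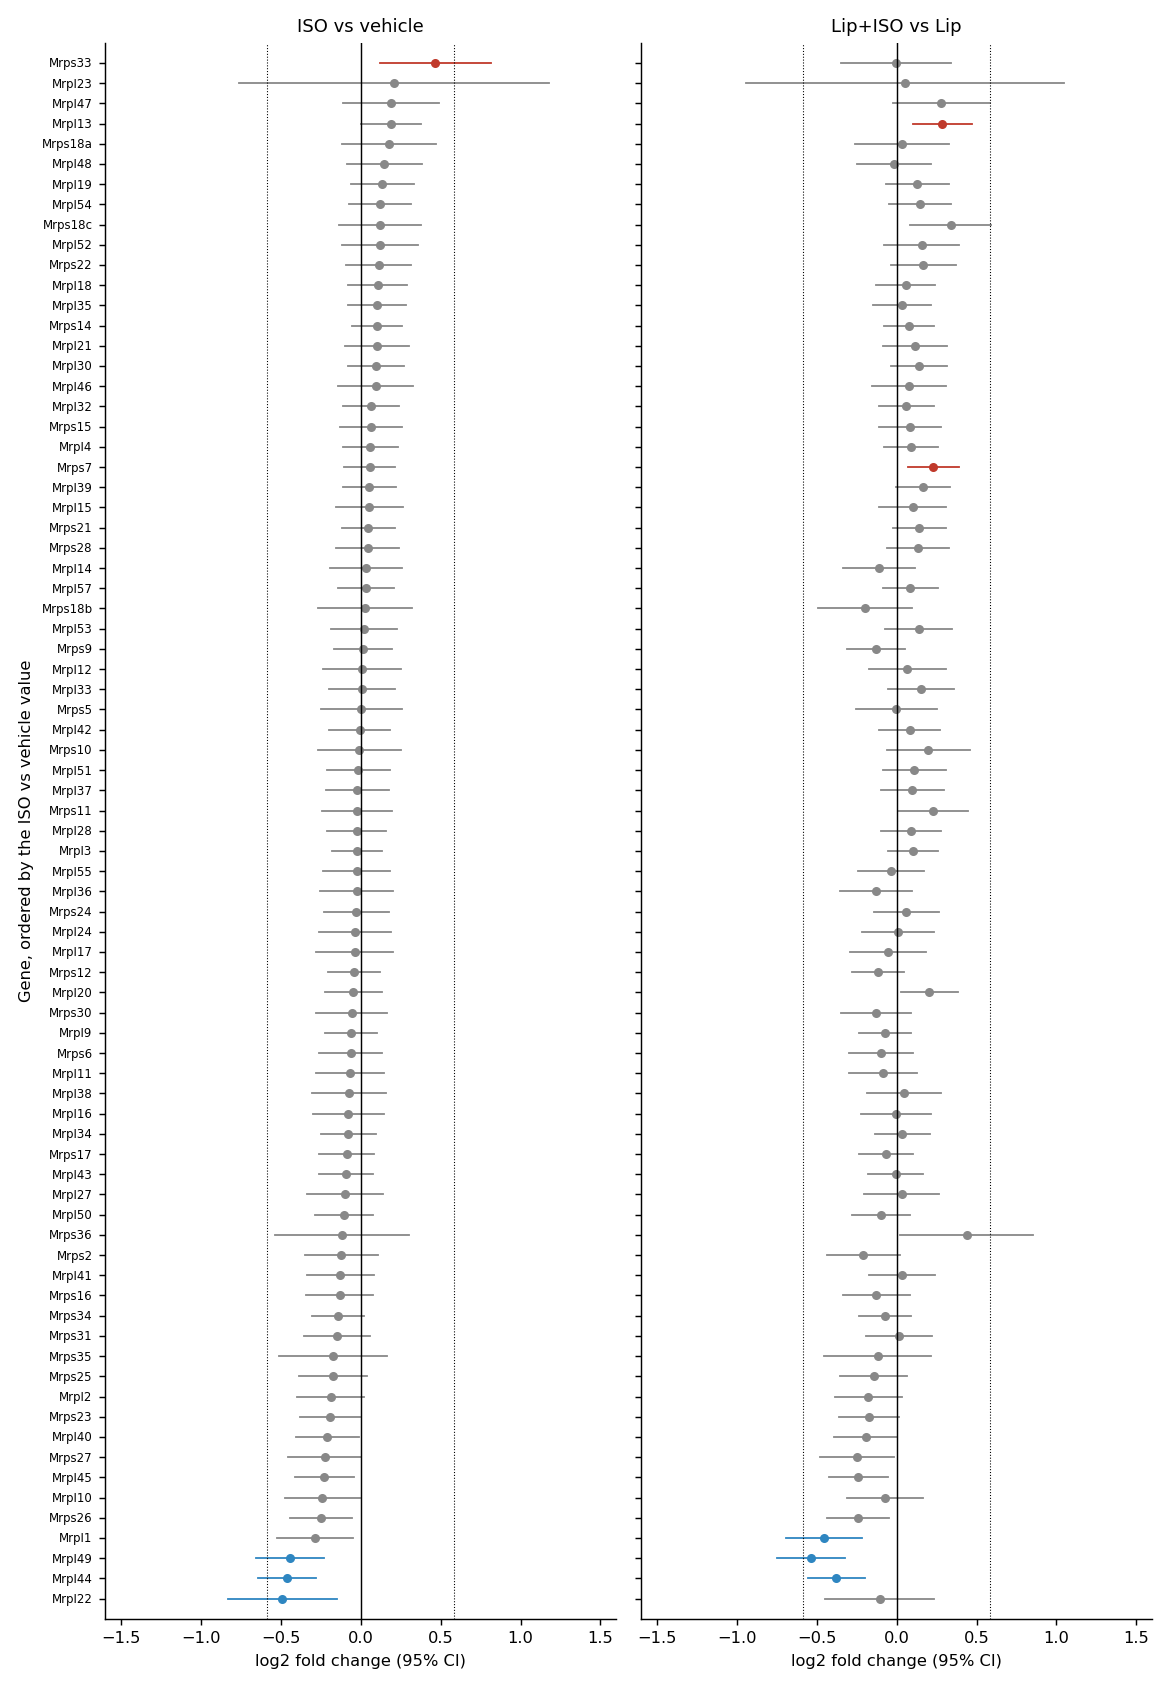
Log2 fold change of each gene with its 95% confidence interval for ISO against vehicle (left) and Lip+ISO against Lip (right), in the order of the left panel. Red marks genes called higher and blue those called lower, and dotted lines mark a 1.5-fold change. In each panel the intervals of 72 of the 77 genes stay between the dotted lines.

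Whether the inhibitors changed the response was tested as an interaction (the ISO effect in inhibited cells less the ISO effect in the others). No member passed in edgeR, and DESeq2 called none. No member had an unadjusted p under 0.05 in edgeR, against 13.8% of all genes. Of all genes, 0.901% had a called interaction above zero and 0.724% below zero. The members nearest to the threshold were, above zero, Mrpl20 (0.25 ± 0.12), Mrps36 (0.56 ± 0.27) and Mrps11 (0.25 ± 0.14), and, below zero, Mrps33 (-0.47 ± 0.23), Mrps9 (-0.14 ± 0.12) and Mrps18b (-0.23 ± 0.19). Their adjusted p in edgeR was 0.364 or higher. So Mrps33 and Mrpl22 passed without the inhibitors and not with them, but a difference between the responses was not shown, with an interval of the difference from -0.96 to 0.02 for Mrps33 and from -0.10 to 0.87 for Mrpl22.

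No change of the family was detected with the inhibitors alone. In Lip against vehicle no member passed in edgeR, and DESeq2 called none. None had an unadjusted p under 0.05 in edgeR, against 4.3% of all genes. Of all genes, 0.00738% were called higher and 0.0443% lower. The confidence interval lay within a 1.5-fold change for 75 members, against 62.9% of all genes. The members with the lowest p were Mrps33 (0.29 ± 0.16), Mrps9 (0.14 ± 0.08) and Mrps18b (0.14 ± 0.14) above zero and Mrpl3 (-0.14 ± 0.07), Mrps10 (-0.22 ± 0.12) and Mrpl20 (-0.12 ± 0.08) below zero.

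In Lip+ISO against ISO no member passed in edgeR or in DESeq2, and 4.36% of all genes were called higher and 4.59% lower. Before adjustment, 2 members (2.6%), Mrps36 and Mrpl39, had a p under 0.05 in edgeR, against 23.8% of all genes. Mrps36 had 2.69, 3.48 and 4.28 CPM in ISO and 4.81, 4.26 and 4.96 CPM in Lip+ISO. These groups overlap, and the log2 fold change was 0.42 ± 0.19 with an adjusted p of 0.203 in edgeR. This comparison shares the ISO libraries with ISO against vehicle and the Lip+ISO libraries with Lip+ISO against Lip.

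Grouped by their place in the ribosome, large-subunit genes with bacterial counterparts had a median log2 fold change of -0.03 in ISO against vehicle and 0.04 in Lip+ISO against Lip (30 genes). For the 20 mitochondria-specific genes of the large subunit it was -0.02 and 0.04, and for the 17 small-subunit genes with bacterial counterparts 0.00 and 0.06. The 9 mitochondria-specific genes of the small subunit had medians of -0.17 and -0.12, with 7 of 9 values negative in each comparison. Mrps33 was the member of this class that was called without the replicate block, and it was higher. With the block Mrps26 was called lower in both comparisons, and Mrps33 stayed higher in ISO than in vehicle. The medians over all genes tested were 0.00 in both comparisons.

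Members with known special roles were read one by one. Mrpl12 forms the stalk that recruits translation factors and had 113, 103 and 116 CPM in vehicle and 111, 110 and 114 CPM in ISO. The values overlap and the log2 fold change was 0.01 ± 0.11, with a sign that turned under library totals. Mrpl10, which anchors that stalk, had 111, 95.04 and 107 CPM in vehicle and 104, 79.7 and 82.0 CPM in ISO, and these ranges overlap (-0.24 ± 0.11, adjusted p = 0.126 in edgeR).

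Mrpl11, at the base of the same stalk, had a log2 fold change of -0.07 ± 0.10 in ISO against vehicle, and Mrpl3, near the catalytic center, one of -0.03 ± 0.07. Mrpl45, which tethers the ribosome to the inner membrane, had 68.3, 57.9 and 63.9 CPM in vehicle and 58.0, 53.8 and 50.3 CPM in ISO. The groups overlap by a narrow margin, and the value of -0.23 ± 0.09 missed the threshold (adjusted p = 0.0641 in edgeR, and 0.0135 with the replicate block). It was -0.24 ± 0.09 with the inhibitors (adjusted p = 0.0523, and 0.0104 with the block).

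Mrps12, at the decoding center, had a log2 fold change of -0.05 ± 0.08 in ISO against vehicle. The 3 homologs of bacterial S18 can be compared with each other. Mrps18a, which sits in the large subunit, had 54.7, 44.6 and 42.1 CPM in vehicle and 61.7, 50.1 and 48.4 CPM in ISO (0.18 ± 0.14, adjusted p = 0.353, and 0.0381 with the replicate block). Within each replicate number its ISO library was higher, although the groups overlap.

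Mrps18b, of the small subunit, had 22.3, 24.6 and 28.7 CPM in vehicle and 25.8, 25.2 and 26.03 CPM in ISO (0.03 ± 0.14). Mrps18c had 18.9, 16.8 and 17.4 CPM in vehicle and 21.9, 17.9 and 17.95 CPM in ISO (0.12 ± 0.12). With the inhibitors Mrps18c had 16.0, 18.3 and 16.1 CPM in Lip and 23.2, 21.9 and 18.5 CPM in Lip+ISO, which do not overlap, and it missed the threshold by little (0.34 ± 0.12, adjusted p = 0.0505 in edgeR, and 0.0234 with the block). The homologs are paralogs, so reads of similar stretches are uncertain.

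Several mitoribosomal proteins are listed under other symbols, among them Dap3, Ptcd3, Aurkaip1, Chchd1, Ict1 and Gadd45gip1, which were all tested. Their log2 fold changes in ISO against vehicle ran from -0.18 (Dap3, adjusted p = 0.117 in edgeR) to 0.12 (Ict1). Dap3 was called lower with the replicate block (adjusted p = 0.0426). The values ran with the inhibitors from -0.08 to 0.15, with adjusted p of 0.264 or higher.

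Genes that act with the ribosome are given next. Among 15 mitochondrial translation factors, ISO lowered 3 without the inhibitors (20.0%, against 13.9% of all genes called lower). With the inhibitors it lowered 4 (26.7%, against 15.8%), and 0 were called higher in either comparison. The replicate block gave 4 lower in each, against 19.6% and 20.1% of all genes. Mtif3, an initiation factor, went from 21.0 ± 0.725 CPM in vehicle to 14.2 ± 0.716 CPM in ISO (-0.56 ± 0.09, adjusted p = 0.00085 in edgeR). Taco1, an activator of Cox1 translation, changed by -0.54 ± 0.10 and Mtfmt, which formylates the initiator transfer RNA, by -0.52 ± 0.13. With the inhibitors the same 3 genes and Tsfm, an elongation factor, were lower. The list's median was -0.10 without and -0.08 with the inhibitors.

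Of 20 genes for mitoribosome assembly and modification of its RNA, 6 were lower in ISO than in vehicle (30.0%, against 13.9% of all genes called lower, median -0.17). With the inhibitors 5 were lower and 1 was higher (30.0% called, against 15.8% of all genes lower and 11.5% higher, median -0.21). The replicate block gave 8 lower in each, against 19.6% and 20.1% of all genes. The methyltransferase Ftsj2 changed by -0.82 ± 0.11 and the pseudouridine synthase Rpusd4 by -0.81 ± 0.15 in ISO against vehicle, and by -0.70 ± 0.11 and -0.91 ± 0.15 with the inhibitors. Noa1, a GTPase needed for mitochondrial translation, changed by -0.29 ± 0.10 and -0.44 ± 0.10. Malsu1, which keeps the subunits apart during assembly, was the gene that was higher (0.38 ± 0.09 with the inhibitors).

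Of 8 genes for transcription and replication of mitochondrial DNA, 2 were lower in ISO than in vehicle (25%, against 13.9% of all genes called lower). With the inhibitors 3 were lower (37.5%, against 15.8%). The replicate block gave 5 lower in each, against 19.6% and 20.1% of all genes. All 8 values were negative in both comparisons (medians -0.29 and -0.35). The helicase Peo1 fell from 17.5 ± 3.02 to 10.52 ± 1.61 CPM (-0.73 ± 0.15) and the elongation factor Tefm from 15.4 ± 1.61 to 10.7 ± 0.770 CPM (-0.53 ± 0.13). Tfam, which packages mitochondrial DNA, changed by -0.23 ± 0.10 without inhibitors (adjusted p = 0.108 in edgeR) and by -0.40 ± 0.10 with them (adjusted p = 0.0085).

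Among 12 regulators of mitochondrial biogenesis, 3 were higher and 1 was lower in ISO than in vehicle (33.3%, against 26.2% of all genes called in either direction). With the replicate block 5 were higher and 1 lower, against 18.8% and 19.6% of all genes. Ppargc1a, which encodes PGC-1α, rose from 7.86 ± 1.84 CPM in vehicle to 108 ± 27.7 CPM in ISO, a log2 fold change of 3.79 ± 0.20, and from 7.95 ± 0.395 CPM in Lip to 131 ± 12.9 CPM in Lip+ISO (4.04 ± 0.20). Gabpb1, a subunit of the ETS factor GABP, rose by 0.64 ± 0.09 and by 1.101 ± 0.09 on the log2 scale, and Esrra, the orphan receptor ERRα, by 0.35 ± 0.11 without inhibitors (0.21 ± 0.11 with them, adjusted p = 0.19). Gabpa, the DNA-binding subunit of GABP, had values of -0.11 ± 0.08 and -0.10 ± 0.08. Gabpb2, listed beside Gabpb1 and named after its values were seen, was the regulator called lower. It went from 41.8 ± 3.98 CPM in vehicle to 29.6 ± 3.23 CPM in ISO (-0.50 ± 0.14, adjusted p = 0.0173 in edgeR). With the inhibitors its value was -0.40 ± 0.14 (adjusted p = 0.0458 in edgeR). With the inhibitors 4 regulators were higher and 3 lower (58.3%, against 27.3% of all genes). The 4 were Ppargc1a, Gabpb1, Yy1 (0.46 ± 0.07) and Nrf1 (0.30 ± 0.08). Without inhibitors Yy1 and Nrf1 were not called (0.09 ± 0.07 and 0.13 ± 0.08). The 3 lower were Gabpb2, Creb1 (-0.43 ± 0.08) and Myc, a growth-related transcription factor. Yy1, Nrf1, Creb1 and Myc were named after their values were seen. Myc went from 58.2 ± 3.93 CPM in Lip to 26.8 ± 4.08 CPM in Lip+ISO (-1.12 ± 0.11). It had 54.4 ± 3.91 CPM in vehicle and 65.8 ± 3.00 CPM in ISO (0.27 ± 0.11, adjusted p = 0.0738 in edgeR, and 0.00857 with the replicate block). Its interaction of -1.39 ± 0.15 (adjusted p = 0.00076 in edgeR) was the only one called among the 12 regulators without the block.

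For scale, the proteins of the cytosolic ribosome were set beside those of the mitochondrial ribosome. Of 80 cytosolic ribosomal protein genes tested, 43 were higher in ISO than in vehicle (53.8%, against 12.3% of all genes called higher, median log2 fold change 0.38) and 20 in Lip+ISO than in Lip (25%, against 11.5%, median 0.23, and 31 genes with the replicate block). Many of these genes have pseudogenes, so single values are uncertain. Of 81 nuclear genes for the respiratory chain and ATP synthase, 1 was higher in ISO than in vehicle (1.23%, against 12.3% of all genes, median 0.04). In Lip+ISO against Lip 6 were higher (7.41%, against 11.5%, median 0.13). With the block these were 5 and 10 genes, against 18.8% and 15.5% of all genes. The difference between these lists was not tested.

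**Figure D5:**
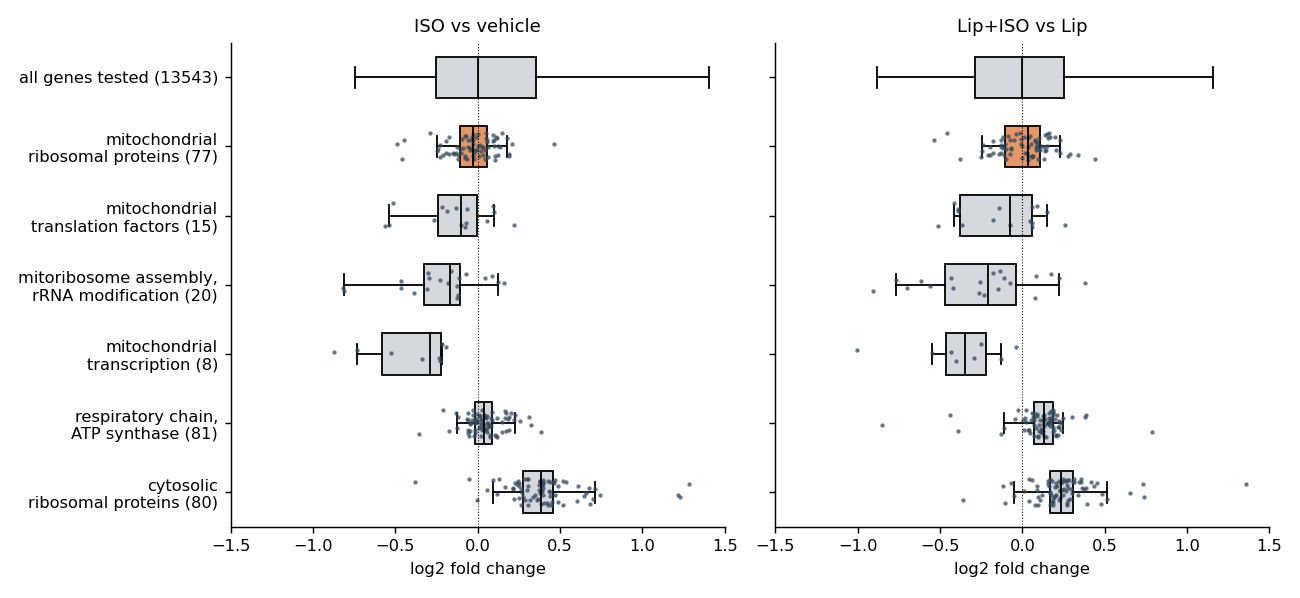
Log2 fold changes by gene list for ISO against vehicle (left) and Lip+ISO against Lip (right), with the number of genes tested in parentheses. Boxes span the quartiles with the median as a line, whiskers reach the 5th and 95th percentiles and points are genes, while points are left out for all genes tested, of which 668 (left) and 582 (right) lie beyond 1.5. The box of the mitochondrial ribosomal proteins sits at the median of all genes (-0.03 and 0.03), and that of the cytosolic ribosomal proteins lies to the right of it.

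The members share features of their genes that the symbol did not use. A gene on the other strand starts within 1000 bp in a head-to-head arrangement for 24 of the 77 members (31.2%), against 7.75% of all genes in the table. All members were tested, whereas the 20295 genes of the table include those with too few reads. The share among the 13543 genes tested is not given here. Mrps11 and Mrpl46 form such a pair with each other, their starts 42 bp apart. Of the 24 partners tested, 2 were higher and 4 lower in ISO than in vehicle (25%, against 26.2% of all genes tested). Mrpl43, named after its values were seen, starts 116 bp from Peo1. While Peo1 fell, Mrpl43 had a log2 fold change of -0.09 ± 0.08 (adjusted p = 0.402 in edgeR).

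RefSeq promoter windows of 300 bases, from 250 before to 50 after a start, were matched by symbol for 68 members and gave 74 windows, which were searched on both strands. The ETS motif CCGGAAG was found in 25 windows (33.8%), against 8.86% of all 32851 windows and 15.8% of the windows of tested genes. The YY1 motif AAGATGGCG was found in 8 windows (10.8%), against 1.40% of all and 2.70% of tested windows. The NRF1 motif GCGCATGC was also found in 8 windows (10.8%), against 2.71% and 4.91%. The exact 95% binomial intervals of the members' shares were 23.2 to 45.7% for ETS and 4.78 to 20.2% for YY1 and for NRF1. For NRF1 the interval includes the 4.91% of tested windows. The intervals count windows as independent, although 3 members gave several windows and the starts of Mrps11 and Mrpl46 lie 42 bp apart. They are a description only. No test was made.

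The remaining motifs were near the background. The ERR motif AAGGTCA was found in 4 windows (5.41%, against 3.34% of tested windows), the cAMP response element TGACGTCA in 2 windows (2.70%, against 2.96%), those of Mrpl16 and Mrpl49, and the E-box CACGTG in 7 windows of 5 genes (9.46%, against 9.70%). Matches of different motifs overlapped in 1 member window, between ERR and E-box. Of the promoters shown, Mrpl22 holds an ETS match at -53 to -47 and an NRF1 match at -33 to -26, counted from the start. The cAMP response element of Mrpl49 lies at -154 to -147, and Mrps33 has an ETS match from base 39 to base 45 after the start, beyond the stretch shown. For Mrpl44 the exact letters of the 6 motifs were not in the window. Variant spellings were not searched in any window, and the stretch shown for Mrpl44 holds GCGCACGC, the NRF1 letters with C in place of T. The absence of a match is therefore not the absence of a site. A match is a description of the letters and not of a bound site.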

How the data were processed

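RNA sequencing counts of 12 libraries in 4 groups were analysed, with groups and replicate numbers from the sample labels. The deposited values are raw counts per gene. Per the study's methods, the authors aligned reads with STAR 2.4.2a to mm9, limited them with HOMER to 1 read per position and length, and counted them per gene with iRNA-seq. Mrps6 reached 11951 counts over 635 counted bp, so how that limit acted on these counts is not known here. Deposited exon lengths in bp gave levels per kb. Strandedness and poly(A) selection are not given in the sources used here.

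The members, gene lists and tests were chosen with earlier results of these data known. In edgeR 4.0.16 (R 4.3.3), filterByExpr left 13543 genes, TMM factors were 0.924 to 1.07, and the quasi-likelihood fit used all 12 libraries and the group alone. Tests were two-sided, adjusted by Benjamini-Hochberg over all genes, with an adjusted p of 0.05 as the threshold and no minimum fold. The code was tested on simulated data. At these depths 3 counts are 0.0678 to 0.132 CPM (counting error only). Alternatives were RLE scaling, library totals, no filter, DESeq2 1.42.0, a replicate block, a minimum fold, left-out libraries and a shorter promoter window.

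Deviations from the group means correlated at 0.139 to 0.331 between same-numbered vehicle and ISO libraries and at 0.192 to 0.298 between Lip and Lip+ISO, so those numbers were taken to pair the samples. Between ISO and Lip+ISO the correlations were 0.0373 to 0.311. Libraries of a group differed by more than sampling noise. Members were named by a rule that took those with special roles and up to 8 called per direction for each effect of ISO. It also took the 3 of lowest p per direction for Lip against vehicle and the interaction. The 5 highest and 3 lowest per kb in vehicle completed it. The rule did not cover the genes named from the other lists. Promoters are from RefSeq (GRCm38.p6).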

Additional observations from a re-analysis of the deposited data

How the results depend on the processing

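The calls for Lip against vehicle, Lip+ISO against ISO and the interaction stayed at 0 under all alternatives run. For ISO against vehicle, 1 gene was higher and 3 lower. Library totals gave 0 and 9, no filter on low counts 0 and 2, the replicate block 3 and 6, and a minimum log2 fold change of 1 gave 0 and 0. For Lip+ISO against Lip, with 2 higher and 3 lower, RLE and DESeq2 each gave 4 higher, library totals 0 and 12, no filter 0 higher, the replicate block 5 and 5, and the minimum fold 0 and 0. The block changed no call for the other comparisons. For the scalings, the fit without a filter and DESeq2, the share of all genes called is not given here. The causes were not tested.

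Leaving out a library or a replicate number (15 fits) gave 0 to 1 genes higher and 1 to 7 lower for ISO against vehicle, with 7 lower without ISO replicate 1, 5 without vehicle replicate 2 and 2 without any other vehicle or ISO library. It gave 0 to 3 higher and 2 to 5 lower for Lip+ISO against Lip, with 0 higher without Lip replicate 2 or 3, 1 without Lip replicate 1, Lip+ISO replicate 1 or vehicle replicate 3, 3 without ISO replicate 1, and 5 lower without Lip+ISO replicate 1. The share of all genes called in the fits with libraries left out is not given here. Their counts are therefore not read as a result on the members. With library totals the summed level was 3607 CPM in Lip and 3328 CPM in Lip+ISO. In the 150 bases nearest the start, the E-box share was 2.70%.

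Signs turned for values near 0 that were not called. In ISO against vehicle, library totals gave -0.030 for Mrpl12, -0.037 for Mrpl33 and -0.013 for Mrps18b, and no filter gave -0.0094 for Mrpl12 and -0.013 for Mrpl33. With libraries left out, the ranges that crossed 0 were -0.068 to 0.023 for Mrpl3, -0.15 to 0.020 for Mrpl11, -0.049 to 0.037 for Mrpl12, -0.12 to 0.021 for Mrpl20, -0.029 to 0.032 for Mrpl33, -0.059 to 0.13 for Mrps18b and -0.29 to 0.037 for Mrps36. In Lip+ISO against Lip, library totals gave -0.0099 for Mrpl3, -0.049 for Mrpl12, -0.051 for Mrpl23 and -0.074 for Mrps18a, and RLE scaling gave 0.027 for Mrps33, and DESeq2 gave 0.028 for Mrps33. With libraries left out, the ranges that crossed 0 were -0.13 to 0.034 for Mrpl10, -0.055 to 0.19 for Mrpl12, -0.29 to 0.43 for Mrpl23, -0.058 to 0.14 for Mrps18a and -0.11 to 0.073 for Mrps33.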
